A study of Mus musculus with 2 samples.

Results

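TRBV19 to TRBV31 are the V genes of the T cell receptor (TCR) β-chain that lie farthest downstream among the mouse TRBV genes. They were followed in the TCR clonotypes of hepatic CD8αα and CD8αβ T cells. A clonotype was kept when its best J hit was a TRBJ gene and its best V hit was a TRBV gene numbered 19 to 31. This rule took 208 of the 1252 TCR β-chain clonotype entries of both libraries, namely 42 of 337 for CD8αα and 166 of 915 for CD8αβ T cells. The genes studied were TRBV19, TRBV20, TRBV23, TRBV24, TRBV26, TRBV29, TRBV30 and TRBV31. The rule also took in TRBV21, which had 2 clonotypes with 7 reads in CD8αβ T cells and was listed at 0 in CD8αα T cells, so totals over the downstream genes include it.

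Both cell types were sorted from the liver of TG mice of strain C57BL/6 and genotype dnTGFβRII at 10 weeks of age, and polyA RNA was sequenced in bulk. The dnTGFβRII transgene is a dominant-negative form of TGF-β receptor II that the CD4 promoter drives in T cells, and both groups carry it. The CD8αα library held 2995 TCR β-chain reads and the CD8αβ library 1850. Since each cell type had a single library, tests below set one library against the other, say nothing on the spread between mice and have no replicate check. Expression of the CD8 chains was not analysed here. Reads without molecular identifiers are not independent molecules, so the 95% Wilson intervals and the floors of 3 counts cover counting error only. The same holds for p-values by reads. Fisher's exact test takes each read as an independent draw, although reads came in clonotypes of up to 663 reads.

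A TCR β-chain is assembled in the thymus by joining a V, a D and a J gene, and the joint forms CDR3, the loop that contacts the peptide. The locus holds 2 clusters of D, J and C genes, and TRBD1 can join TRBJ1 or TRBJ2 genes, whereas TRBD2 lies beyond the TRBJ1 cluster and ordinarily joins TRBJ2 genes. Most V genes lie upstream of both clusters in the same orientation and join by deletion of the DNA between. TRBV31 lies beyond the C genes in the opposite orientation and joins by inversion.

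In the GENCODE annotation of GRCm38 all of these genes lie on chromosome 6 and have 2 exons, a leader exon and the V exon. TRBV19 to TRBV30 were on the plus strand between -354 and -251 kb from the start of TRBD1, measured at the 3′ end of the V exon. TRBV31 (chr6:41557691-41558452) was on the minus strand, 24.5 kb beyond that start. The last 30 bases of each V exon are shown because they carry the germline start of CDR3 that a clonotype can be read against. Capitals mark the germline CDR3 part, from the codon of the conserved cysteine to the end of the exon.
TRBV19, chr6:41179019-41179048, plus strand: tggccgtttttctcTGTGCCAGCAGTATAG
TRBV20, chr6:41188948-41188977, plus strand: cagaggcttatatctcTGTGGTGCTAGGGA
TRBV23, chr6:41216497-41216526, plus strand: agcactgtacttgTGCTCCAGCAGTCAATC
TRBV24, chr6:41218528-41218557, plus strand: agcactgtagctcTGTGCCAGCAGTCTGTA
TRBV26, chr6:41227964-41227993, plus strand: agcactgtacctcTGTGCCAGCAGTCTGTC
TRBV29, chr6:41271852-41271881, plus strand: atctgtgtacttcTGTGCTAGCAGTTTATC
TRBV30, chr6:41281961-41281990, plus strand: cagcagtatctatttcTGTAGTTCTAGAGA
TRBV31, chr6:41557691-41557720, minus strand: ctggcttctacctcTGTGCCTGGAGTCTCA
The germline CDR3 part had 14 bases in TRBV20 and TRBV30, 16 in TRBV19 and TRBV31, and 17 in the other 4 genes. TRBV24 carried a stop codon in the frame of CDR3, 2 codons before the cysteine, and was annotated as a pseudogene. Its CDR3 part was identical to that of TRBV26 at 16 of 17 bases. TRBV29 was a functional gene in GENCODE, whereas RefSeq for the same build listed it as a pseudogene and TRBV24 as a functional segment.

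The assignment to TRBV31 was checked against these germline ends. The first 9 germline bases of TRBV31 opened all 29 TRBV31 CDR3s and 0 of the 334 and 889 CDR3s of other V genes in CD8αα and CD8αβ T cells. The same check cannot separate all of the other genes, since TRBV19 shares its first 12 germline CDR3 bases with TRBV24 and TRBV26, TRBV21 shares 12 with TRBV29, and TRBV24 shares 16 with TRBV26. For those genes the V hits of the deposited lists were used as given. A second V hit was listed for 1 clonotype of CD8αα and 3 of CD8αβ T cells, always TRBV24 behind TRBV26, and no best hit tied in score with another gene. Both TRBV24 clonotypes had TRBV24 as their single listed hit, and their CDR3s matched the germline over 14 and 16 bases, within the stretch that TRBV26 shares.

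The downstream V genes were a smaller part of the TCR β-chain repertoire in CD8αα T cells than in CD8αβ T cells. Their reads numbered 252 for CD8αα T cells, or 8.41% (95% Wilson interval 7.47 to 9.46), and 281 for CD8αβ T cells, or 15.2% (13.6 to 16.9). The share of reads was 1.81-fold higher in the CD8αβ library (Fisher's exact test, two-sided here and below, p = 6.76e-13). By clonotypes the shares were 12.5% (9.35 to 16.4) and 18.1% (15.8 to 20.8), 1.46-fold higher in CD8αβ T cells (Fisher's exact test, p = 0.0165). With clonotypes of at least 2 reads the clonotype difference was of like size but not past the threshold (Fisher's exact test, p = 0.0679). A share depends on all other genes, and 2 genes were called higher in CD8αα T cells by reads, TRBV16 (30.1% against 10.9%) and TRBV5 (10.7% against 1.57%). When both were left out of all totals, a setting chosen after their values were seen, the downstream genes held 14.2% (12.7 to 15.9) of reads in CD8αα and 17.3% (15.6 to 19.3) in CD8αβ T cells (Fisher's exact test, p = 0.0123). By clonotypes the shares were then 15.3% and 20.6%, not past the threshold (Fisher's exact test, p = 0.0518), and by reads 1 of the 8 genes was called, TRBV31.

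**Figure D1:**
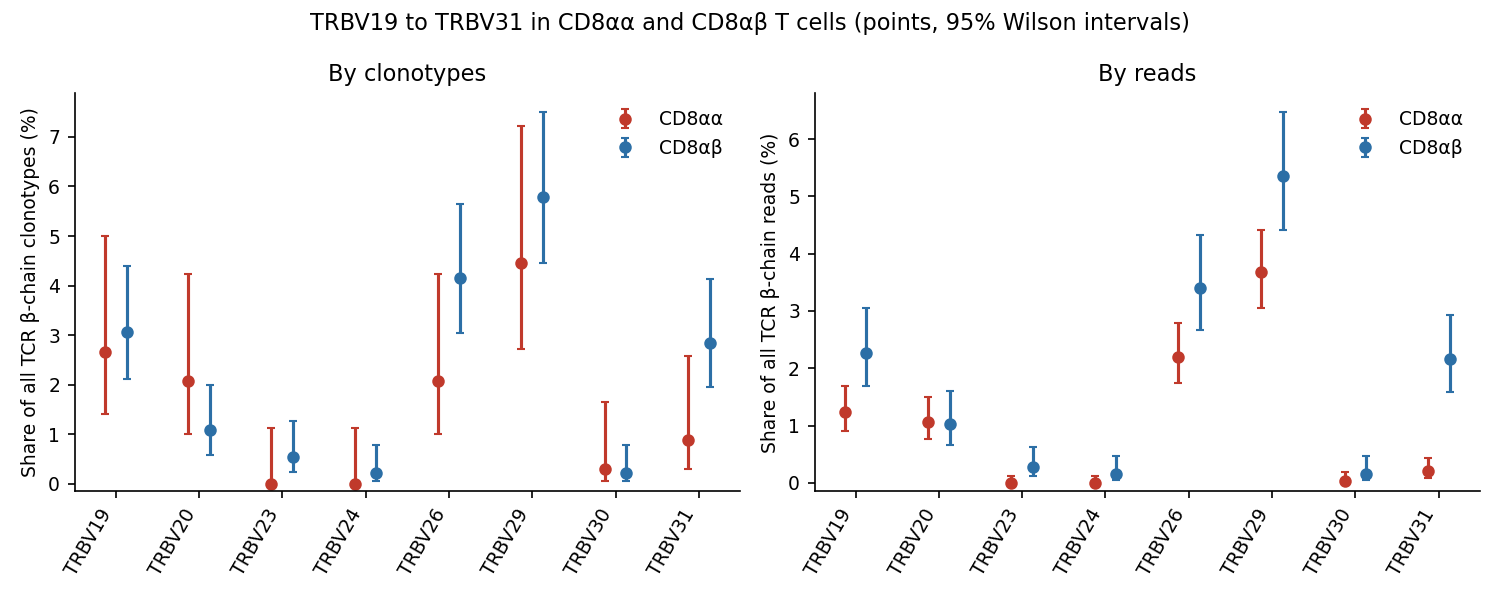
Share of all TCR β-chain clonotypes (left) and reads (right) for each downstream V gene in locus order, in percent, with 95% Wilson intervals and 1 library for each cell type. TRBV29 was the highest gene in both libraries, and TRBV31 showed the largest ratio by reads among the genes with more than 3 reads in each library, with 0.200% in CD8αα and 2.16% in CD8αβ T cells.

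Of the 8 genes, 5 had a share of reads that differed between the libraries, each lower in CD8αα T cells. Over all 24 TRBV genes listed, 58.3% were called in either direction and 50% were called lower in CD8αα T cells, so the count among the downstream genes was near the background. By clonotypes 0 of the 8 genes were called, also 0 at an unadjusted p under 0.05, against a background of 4.17% in either direction and 0% lower in CD8αα T cells. The median difference in read share was -0.65 percentage points over the 8 genes and -1.08 over all TRBV genes. These calls used Fisher's exact test with Benjamini-Hochberg adjustment over the 24 genes.

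TRBV31, the inverted gene, had the largest difference in share of reads among the 8 genes, at -1.96 percentage points, although TRBV29 exceeded it with clonotypes of at least 2 reads (-1.79 against -1.49) and without the largest downstream clonotypes (-3.12 against -1.97). It had 6 reads in 3 clonotypes of CD8αα T cells, with 3, 2 and 1 reads. The CD8αβ library held 40 TRBV31 reads in 26 clonotypes, and the largest had 6 reads. Its share of reads was thus 0.200% (0.0918 to 0.436) against 2.16% (1.59 to 2.93), a 10.8-fold difference with an exact counting interval of 4.55 to 31.1 (Fisher's exact test, adjusted p = 4.17e-11). Its share of clonotypes was 0.890% (0.303 to 2.58) against 2.84% (1.95 to 4.13), a ratio of 3.19 with an exact interval of 0.978 to 16.5, which did not pass the test (Fisher's exact test, p = 0.0540, adjusted p = 0.422). The read share stayed past the threshold under the 9 alternatives tried, with adjusted p from 3.67e-11 to 4.79e-07 by Fisher's exact test.

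TRBV29 and TRBV26 were the most used downstream genes in CD8αβ T cells. TRBV29 had 110 reads in 15 clonotypes of CD8αα T cells and 99 reads in 53 clonotypes of CD8αβ T cells, so similar read numbers were spread over more clonotypes in the latter. The TRBV29 share of reads was 3.67% (3.06 to 4.41) against 5.35% (4.42 to 6.47), with an adjusted p of 0.0136 by Fisher's exact test, and without TRBV16 and TRBV5 in the totals the TRBV29 difference was 0.0896 points (adjusted p = 1). TRBV26 had 66 reads in 7 clonotypes of CD8αα T cells and 63 reads in 38 clonotypes of CD8αβ T cells. The TRBV26 share of reads was 2.20% (1.74 to 2.79) against 3.41% (2.67 to 4.33), with an adjusted p of 0.0241 by Fisher's exact test.

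TRBV19 followed with 37 reads in 9 clonotypes against 42 reads in 28 clonotypes. Its share of reads was 1.24% (0.898 to 1.70) in CD8αα and 2.27% (1.68 to 3.05) in CD8αβ T cells (Fisher's exact test, adjusted p = 0.0153). When the largest TCR β-chain clonotype of each library was left out, TRBV19, TRBV26 and TRBV29 were no longer called (adjusted p = 0.135, 0.265 and 0.269, Fisher's exact test), and 2 of the 8 genes remained, TRBV23 and TRBV31. With clonotypes of at least 2 reads, 2 genes were also called, TRBV29 and TRBV31. The clonotype left out in CD8αα T cells belonged to another V gene and held 663 reads, so it entered the total of every share.

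TRBV20 was the gene that did not follow this direction. It had 32 reads in 7 clonotypes of CD8αα T cells and 19 reads in 10 clonotypes of CD8αβ T cells. Its shares of reads were 1.07% (0.758 to 1.50) and 1.03% (0.658 to 1.60), a ratio of CD8αβ to CD8αα of 0.961 with an exact interval of 0.515 to 1.75 (Fisher's exact test, adjusted p = 1).

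The remaining genes were close to the floor. TRBV23 was listed at 0 in CD8αα T cells and had 5 clonotypes of 1 read each in CD8αβ T cells, 0.270% of reads (0.115 to 0.631). That share was 2.70 times the floor of 3 reads in CD8αα T cells, which is 0.1002% there (Fisher's exact test, adjusted p = 0.0162). The ratio leaves out the counting error of the 5 reads, so it is not a lower bound. Without TRBV16 and TRBV5 in the totals, TRBV23 was not past the threshold (Fisher's exact test, adjusted p = 0.0543). TRBV24 had 0 reads in CD8αα and 3 reads in 2 clonotypes of CD8αβ T cells, which is the floor. TRBV30 had 1 read against 3 reads. Neither TRBV24 nor TRBV30 passed the test (Fisher's exact test, adjusted p = 0.0890 and 0.191). The floor by clonotypes was 0.890% in CD8αα T cells, above the TRBV23, TRBV24 and TRBV30 shares in either library, so a difference in clonotypes was not detectable at this depth.

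By clonotypes the genes ranked TRBV29, TRBV26, TRBV19, TRBV31, TRBV20 and TRBV23 in CD8αβ T cells, with TRBV24 and TRBV30 last at 2 clonotypes each. In CD8αα T cells the order was TRBV29, TRBV19, TRBV20 and TRBV26 with 7 clonotypes each, TRBV31 and TRBV30. The Wilson intervals of every pair of neighbours in these orders overlapped. TRBV29 and TRBV30, which are neighbours in the locus, had 53 and 2 clonotypes in CD8αβ T cells. A relation between distance from TRBD1 and clonotype share was not tested.

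**Figure D2:**
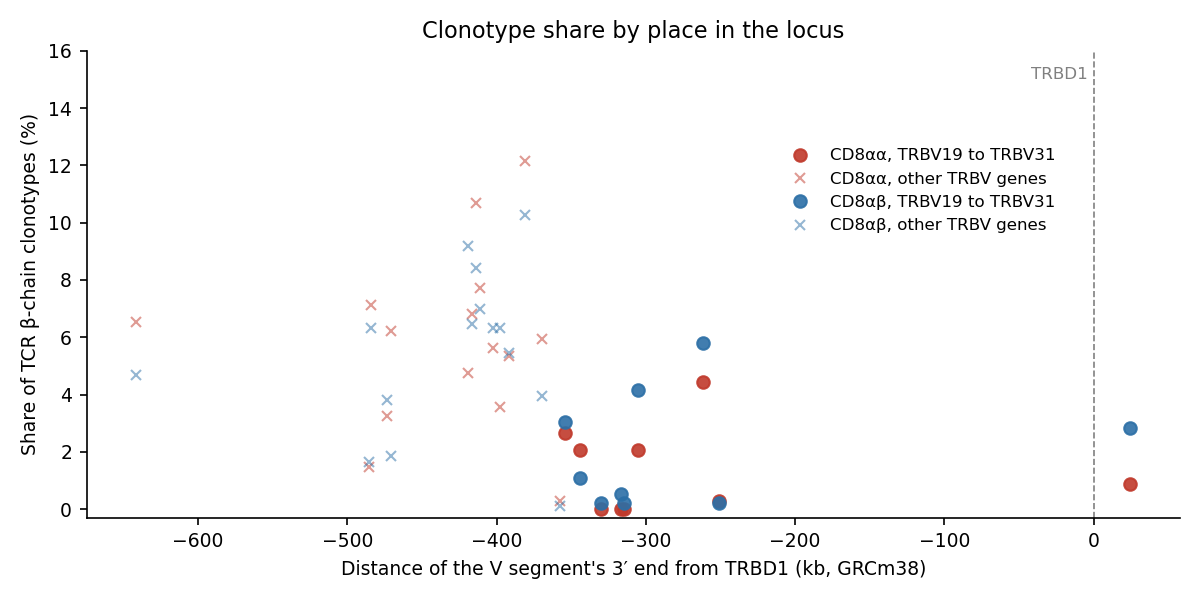
Share of TCR β-chain clonotypes (percent) against the distance of the V segment's 3′ end from TRBD1 (kb), for the 9 genes numbered 19 to 31 (circles) and other TRBV genes (crosses), with 1 library for each cell type. TRBV31 stands alone at 24.5 kb with 0.890% in CD8αα and 2.84% in CD8αβ T cells, and the other downstream genes lie between -354 and -251 kb.

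The clonotypes of the downstream genes were larger in CD8αα T cells. The 42 clonotypes of CD8αα T cells had 6 reads on average and the 166 clonotypes of CD8αβ T cells had 1.69, against 9.30 and 2.09 for the other V genes. At least 10 reads were held by 7 clonotypes in CD8αα T cells and by 1 in CD8αβ T cells. The share of clonotypes with 1 read was 33.3% (21.0 to 48.4) in CD8αα and 57.8% (50.2 to 65.1) in CD8αβ T cells (Fisher's exact test, adjusted p = 0.0110 over 4 tests). The other V genes had like shares, 31.5% and 57.3%, and within a library the downstream genes were not told apart from them (Fisher's exact test, adjusted p = 0.931 in both). The libraries also differed in depth, with 2995 and 1850 TCR β-chain reads, and the part of depth in the clone sizes was not tested.

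The CDR3 sequences of the 8 clonotypes with at least 10 reads are given here, with the largest TRBV31 clonotype of each library and the larger TRBV24 clonotype, to show how the germline ends above were trimmed and joined. Capitals mark the bases between the aligned V and J ends, which hold the D gene remnant and added bases. They can also hold bases that match the germline V gene. The first capital T of both TRBV31 sequences matches the next germline base of TRBV31.
TRBV29-TRBJ1-5, CD8αα, 61 reads: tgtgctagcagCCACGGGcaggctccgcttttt
TRBV26-TRBJ2-1, CD8αα, 35 reads: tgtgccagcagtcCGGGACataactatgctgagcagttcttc
TRBV29-TRBJ1-4, CD8αα, 13 reads: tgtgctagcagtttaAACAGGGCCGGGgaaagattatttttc
TRBV20-TRBJ2-1, CD8αα, 13 reads: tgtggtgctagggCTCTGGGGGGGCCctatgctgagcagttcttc
TRBV19-TRBJ1-1, CD8αα, 12 reads: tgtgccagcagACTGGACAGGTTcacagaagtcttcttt
TRBV29-TRBJ1-3, CD8αα, 11 reads: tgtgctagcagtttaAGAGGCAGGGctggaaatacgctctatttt
TRBV26-TRBJ1-1, CD8αα, 10 reads: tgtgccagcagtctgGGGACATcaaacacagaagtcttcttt
TRBV29-TRBJ1-1, CD8αβ, 11 reads: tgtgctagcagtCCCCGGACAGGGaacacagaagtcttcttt
TRBV31-TRBJ1-3, CD8αα, 3 reads: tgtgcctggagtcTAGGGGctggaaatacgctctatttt
TRBV31-TRBJ2-7, CD8αβ, 6 reads: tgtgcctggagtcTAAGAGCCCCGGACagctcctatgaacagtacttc
TRBV24-TRBJ2-1, CD8αβ, 2 reads: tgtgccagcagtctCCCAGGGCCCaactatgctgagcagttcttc
TRBV29 and TRBV26 supplied 5 of the 7 such clonotypes of CD8αα T cells. The TRBV29-TRBJ1-5 clonotype held 61 reads, 24.2% (19.3 to 29.9) of the downstream reads and 55.5% of the TRBV29 reads of CD8αα T cells, and ranked 7 among all TCR β-chain clonotypes of that library. The TRBV26-TRBJ2-1 clonotype held 35 reads, 53.0% of the TRBV26 reads. The largest clonotype of CD8αβ T cells, TRBV29-TRBJ1-1, held 11 reads, 3.91% (2.20 to 6.87) of the downstream reads. The 5 largest clonotypes held 53.2% of the downstream reads of CD8αα and 11.4% of those of CD8αβ T cells. The inverse Simpson index, the number of equally large clonotypes that would give the same concentration of reads, was 10.5 and 110. The other V genes showed a like contrast between the libraries, with 45.7% and 14.0% of their reads in their 5 largest clonotypes, 24.2% and 5.80% in the largest, and inverse Simpson indices of 13.4 and 141.

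**Figure D3:**
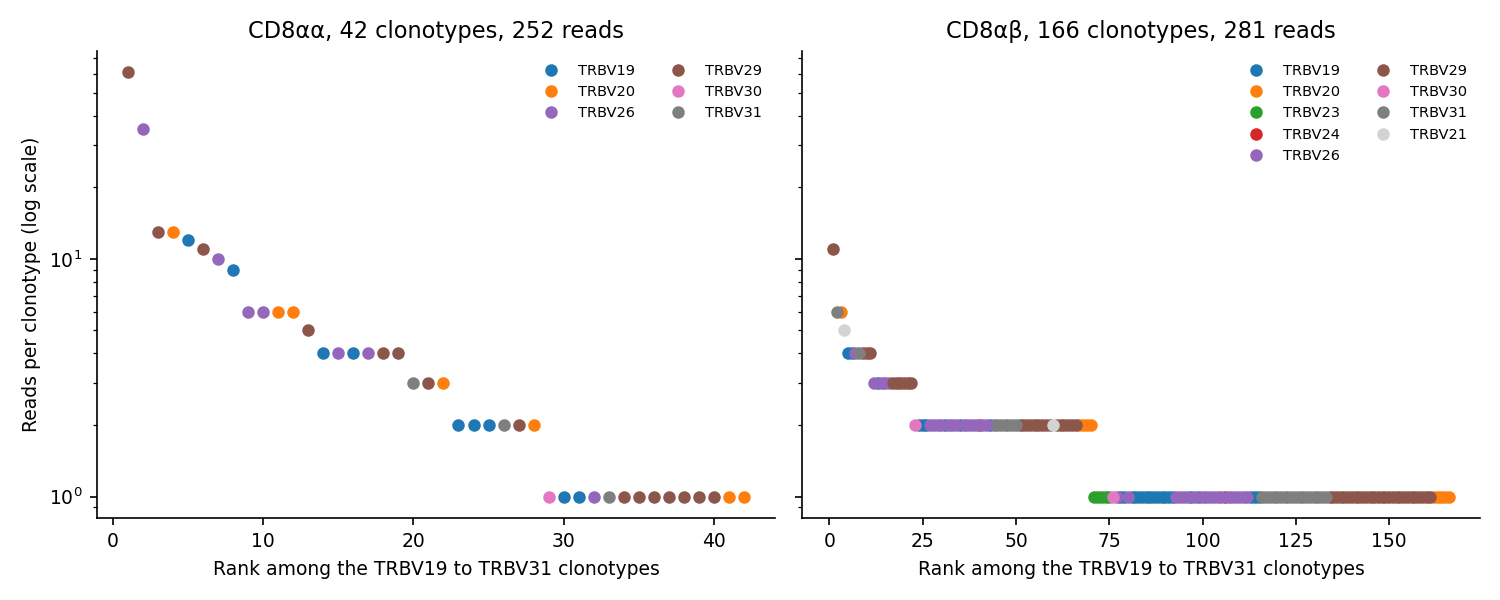
Reads per clonotype (log scale) by rank for the downstream V genes in CD8αα (left, 42 clonotypes) and CD8αβ T cells (right, 166 clonotypes), coloured by V gene, with later colours drawn over earlier ones. The first 2 clonotypes of CD8αα T cells, of TRBV29 and TRBV26, stand at 61 and 35 reads, whereas the first in CD8αβ T cells stands at 11.

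No downstream clonotype was found in both libraries, whether compared by nucleotide or by amino acid CDR3 with the same V and J genes. Among the other V genes 3 clonotypes were shared by nucleotides, which was 1.02% of those of CD8αα and 0.401% of those of CD8αβ T cells, and 5 by amino acids, 1.72% and 0.669%. At such shares less than 1 of the 42 downstream clonotypes would be shared, so a count of 0 is near the background.

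The share of downstream clonotypes joined to TRBJ2 genes was not told apart between the cell types. It was 24 of 42 (57.1%, 42.2 to 70.9) in CD8αα T cells and 96 of 166 (57.8%, 50.2 to 65.1) in CD8αβ T cells (Fisher's exact test, p = 1). The inverted TRBV31 was not told apart from the genes that join by deletion. Among CD8αβ T cells 14 of 26 TRBV31 clonotypes (53.8%, 35.5 to 71.2) and 81 of 138 clonotypes of the other 7 genes (58.7%, 50.4 to 66.6) were joined to TRBJ2 (Fisher's exact test, p = 0.670). In CD8αα T cells the numbers were 2 of 3 and 22 of 39 (Fisher's exact test, p = 1), and 3 clonotypes leave a wide interval of 20.8 to 93.9%.

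The downstream genes used TRBJ2 less than the other V genes in CD8αβ T cells. There 70.8% (67.4 to 73.9) of the 749 clonotypes of other V genes were joined to TRBJ2, 12.9 percentage points more than among the downstream clonotypes (Fisher's exact test, adjusted p = 0.00823 over 5 tests). In CD8αα T cells the other V genes stood at 68.8% (63.3 to 73.8), and the gap of 11.7 points did not pass the test (Fisher's exact test, adjusted p = 0.398). This comparison was added after the lists had been seen. The 4 downstream genes of CD8αβ T cells with at least 20 clonotypes stood at 67.9% (TRBV19), 60.5% (TRBV26), 56.6% (TRBV29) and 53.8% (TRBV31), and the 12 other genes of that size ranged from 58.1 to 88.6% with a median of 72.9%. The difference stayed past the threshold (unadjusted) when any of the 4 genes was left out. With clonotypes of at least 2 reads it was lost, since 67.1% of 70 downstream and 67.8% of 320 other clonotypes were then joined to TRBJ2 (Fisher's exact test, p = 1). Among clonotypes of 1 read the shares were 51.0% of 96 and 73.0% of 429.

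Among single J genes, TRBJ1-1 differed. In CD8αβ T cells it was joined to 31 of 166 downstream clonotypes (18.7%) and to 9.21% of those of other V genes, and it was the sole one of 24 tests over J genes and libraries to pass (Fisher's exact test, adjusted p = 0.0206). These tests over J genes were added after the lists had been seen. The TRBJ1-1 difference was not rerun with clonotypes of at least 2 reads or with single V genes left out. TRBV26 and TRBV29 gave 10 TRBJ1-1 clonotypes each. The most frequent J partner was TRBJ2-7 for both of these genes in CD8αβ T cells, with 13 clonotypes each, and TRBJ2-1 for TRBV19, with 8. TRBV31 was spread over 11 J genes, with TRBJ1-2 and TRBJ2-2 the most frequent at 4 clonotypes each. In CD8αα T cells TRBV29 was most often joined to TRBJ1-4, in 4 of 15 clonotypes, and TRBV26 to TRBJ2-7, in 4 of 7.

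**Figure D4:**
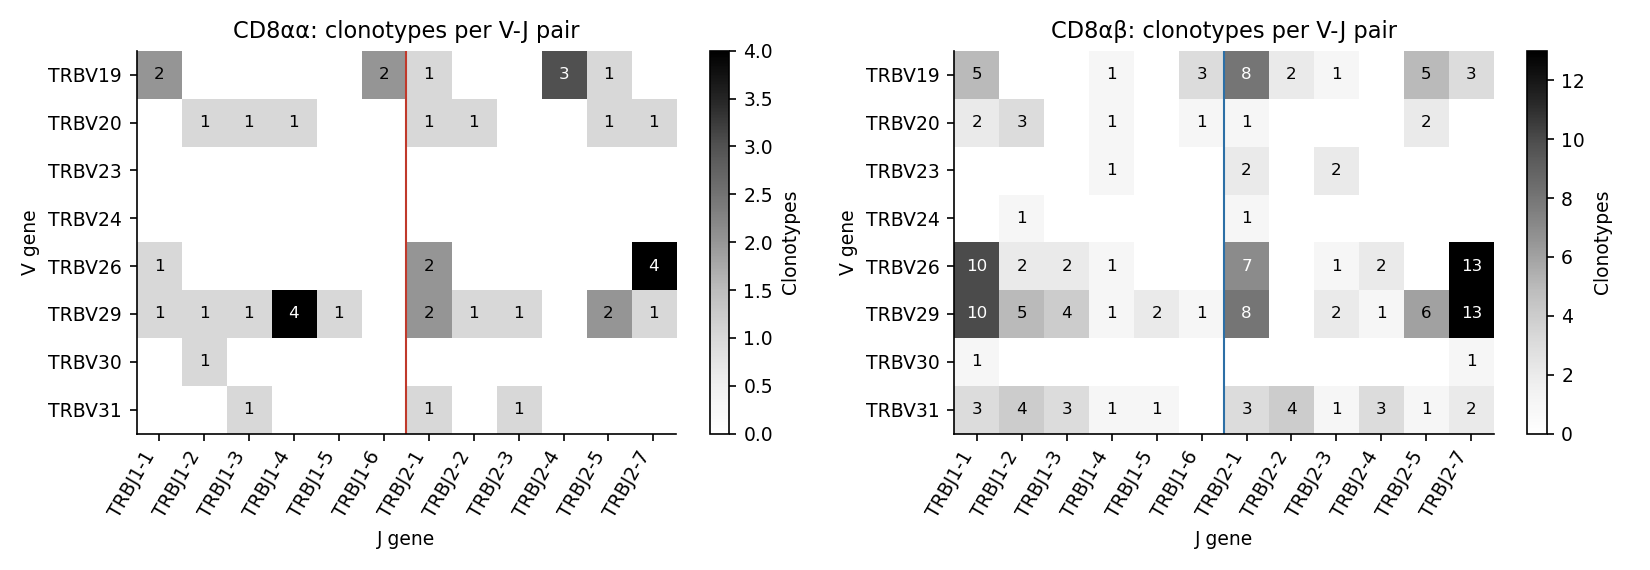
Number of clonotypes for each V-J pair of the downstream genes in CD8αα (left) and CD8αβ T cells (right), with a separate grey scale for each library and a coloured line between the TRBJ1 and TRBJ2 genes. In CD8αβ T cells the darkest cells are TRBV26 and TRBV29 with TRBJ2-7 (13 clonotypes each) and TRBJ1-1 (10 each), while TRBV31 is spread thinly with at most 4.

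The bases between V and J were compared with both D genes, to see which D gene each downstream clonotype resembled. TRBD1 (chr6:41533201-41533212) and TRBD2 (chr6:41542163-41542176) are shown for this purpose, both on the plus strand and in capitals throughout.
TRBD1: GGGACAGGGGGC
TRBD2: GGGACTGGGGGGGC
A clonotype was given the D gene that shared the longer run of bases with it, read on the coding strand, if that run had at least 5 bases. Clonotypes without such a run, and those whose runs with both D genes were equally long, were counted as neither. Among downstream clonotypes joined to TRBJ1, 13 of 18 in CD8αα and 40 of 70 in CD8αβ T cells had TRBD1, and 2 and 1 had TRBD2. Among those joined to TRBJ2 in CD8αβ T cells, 38 had TRBD1, 26 had TRBD2 and 32 had neither. TRBD1 thus made up 59.4% (47.1 to 70.5) of the 64 TRBJ2-joined downstream clonotypes that were given a D gene. For the other V genes it was 37.6% (32.9 to 42.5) of 386 (Fisher's exact test, adjusted p = 0.00289 over 2 tests). In CD8αα T cells the shares were 33.3% of 15 and 27.3% of 150 (Fisher's exact test, adjusted p = 0.763). The difference in CD8αβ T cells was 22.1 points with clonotypes of at least 2 reads (Fisher's exact test, p = 0.0315) and 15.8 points without TRBV29 (Fisher's exact test, p = 0.0521). Among the TRBJ2-joined TRBV31 clonotypes of CD8αβ T cells, 5 had TRBD1, 5 had TRBD2 and 4 had neither. This comparison was also added after the lists had been seen.

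The mean CDR3 length of the downstream clonotypes differed between the libraries by less than its standard error over clonotypes. It was 13.5 ± 1.35 amino acids (SD over 42 clonotypes) in CD8αα and 13.6 ± 1.47 (SD over 166 clonotypes) in CD8αβ T cells, a difference of -0.11 with a standard error over clonotypes of 0.237. The other V genes had means of 14.1 and 13.9, a difference of 0.28 with a standard error of 0.101. Whether the downstream genes and the other genes differed in this respect was not tested. Clonotypes of a library are not replicates, so these standard errors do not cover the spread between mice.

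CDR3s of at least 15 amino acids were less frequent among the downstream clonotypes than among the other V genes of the same library. They made up 9 of 42 (21.4%, 11.7 to 35.9) against 40.0% (34.6 to 45.7) in CD8αα T cells and 38 of 166 (22.9%, 17.2 to 29.9) against 34.6% (31.3 to 38.1) in CD8αβ T cells. Fisher's exact test gave adjusted p-values of 0.0390 and 0.0101 over 3 tests, added after the lists had been seen. Without TRBV29, which had 4 such CDR3s among 53 clonotypes of CD8αβ T cells, the difference was not past the threshold in either library (Fisher's exact test, p = 0.0969 and 0.394). It was also not past it with clonotypes of at least 2 reads (Fisher's exact test, p = 0.304 and 0.157). For CD8αα T cells the same held without TRBV26 (Fisher's exact test, p = 0.0646).

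The bases that the aligned V gene left in CDR3 averaged 12.9 in the downstream clonotypes of both libraries, against 14.0 and 13.9 in the clonotypes of other V genes. The J part averaged 18.3 bases against 18.6 in CD8αα T cells and 18.2 against 18.5 in CD8αβ T cells. The stretch between them averaged 9.10 against 9.78 bases in CD8αα and 9.52 against 9.17 in CD8αβ T cells. The V part was thus shorter by about 1 base in both libraries. The J part was shorter in both libraries as well, whereas the stretch was shorter in CD8αα and longer in CD8αβ T cells. In CD8αα T cells the V part thus made up only a part of the difference. These parts were not tested.

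The mean CDR3 lengths of the single genes are a description and were not tested against each other. TRBV20 had the shortest mean of the genes with more than 2 clonotypes in a library, 12.9 ± 2.12 amino acids over 7 clonotypes and 12.7 ± 1.77 over 10. TRBV31 had means of 14.0 over 3 and 14.1 ± 1.55 over 26 clonotypes, and the longest downstream CDR3, of 18 amino acids, was a TRBV31 clonotype of CD8αβ T cells. TRBV29 stood at 13.4 ± 1.18 and 13.2 ± 1.23, TRBV26 at 13.7 ± 1.25 and 13.5 ± 1.33, and TRBV19 at 13.7 ± 1.22 and 13.8 ± 1.73. TRBV23, absent from the list of CD8αα T cells, had 14.8 ± 1.64 over 5 clonotypes. These spreads are SDs over clonotypes and overlap between every pair of genes named.

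**Figure D5:**
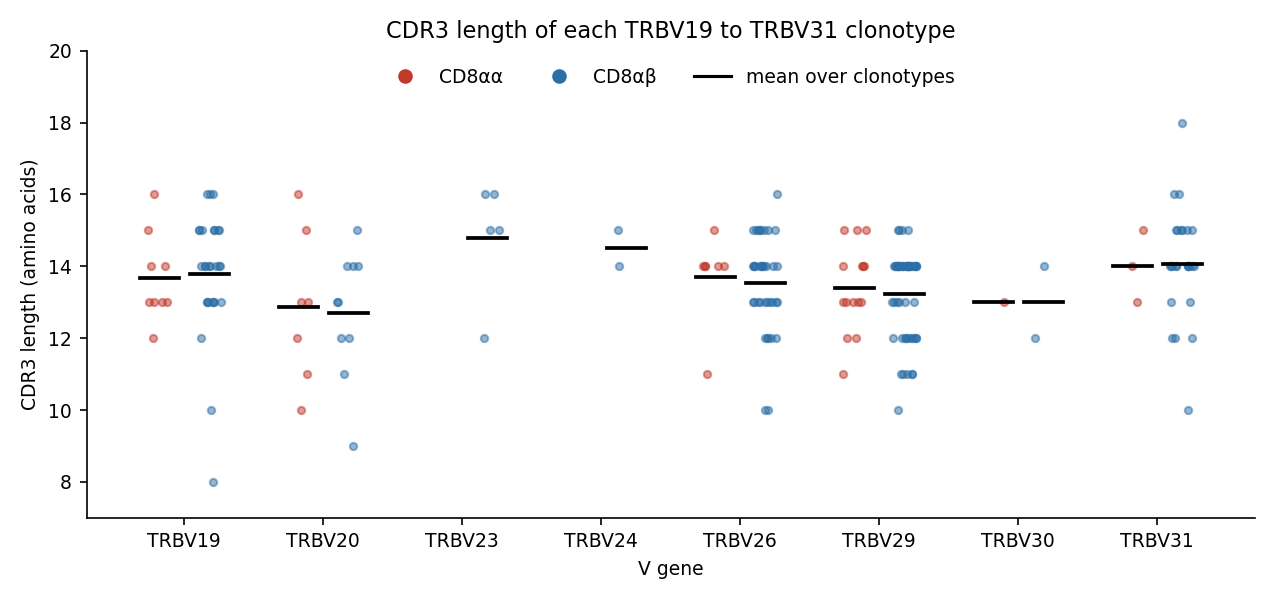
CDR3 length in amino acids of each downstream clonotype by V gene, in CD8αα (red) and CD8αβ T cells (blue), with horizontal jitter and black lines at the means. The TRBV20 means (12.9 and 12.7) are the lowest, the TRBV31 points of CD8αβ T cells reach 18, and the means of both cell types lie close together within each gene.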

How the data were processed

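Bulk RNA-seq of 2 samples, sorted hepatic CD8αα T cells and CD8αβ T cells (TG mice), was available as TCR clonotype lists. The authors assembled clonotypes with MiXCR and deposited a count of reads per clonotype, without normalization, and the fraction this makes of the library's listed reads. Fractions were not used for the shares. The processing notes name the build mm10, and the MiXCR command, reference library and filters are not given in the sources used here. Only in-frame CDR3s without stop codons were listed.

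From the deposited counts, shares were taken over the reads or clonotypes of the TCR β-chain (2995 and 337 in CD8αα, 1850 and 915 in CD8αβ T cells), with 95% Wilson intervals. Differences between shares were tested with Fisher's exact test (two-sided) and Benjamini-Hochberg adjustment at a threshold of 0.05. Python 3.11.15 was used with scipy 1.17.1, pandas 2.3.3, numpy 2.4.6 and, for plots, matplotlib 3.10.9. Fisher's exact test with the adjustment was also run on simulated reads drawn independently from fixed gene shares. Real reads come in clonotypes, so that simulation cannot show the error rate of the tests on reads here. Germline ends, D genes and coordinates came from GENCODE vM21 transcripts and annotation of GRCm38. Every gene was named, as was every clonotype with at least 10 reads. The largest clonotype and the most frequent J partners were named for some of the genes only. The members and lists were chosen with earlier results of these data known. Other chains, single cells and flow cytometry were not analysed here.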

Additional observations from a re-analysis of the deposited data

How the results depend on the processing

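The lower share of TRBV19 to TRBV31 in CD8αα T cells was -6.78 percentage points by reads and ranged from -8.17 to -3.14 under 9 alternatives, each past the threshold. The smallest difference was without TRBV16 and TRBV5, where the clonotype share difference was -5.37 points and short of the threshold, 1 gene was called by reads, and the TRBV29 share of reads, past the threshold in the full lists, changed direction (0.0896 points). With clonotypes of at least 2 reads, the clonotype share difference was -5.77 points and no longer past the threshold, 2 genes in place of 5 were called by reads, and the TRBJ2 gap to the other V genes in CD8αβ T cells was -0.67 points. In that setting the gap in CDR3s of at least 15 amino acids was -11.0 points in CD8αα and -9.15 points in CD8αβ T cells. Leaving out the largest TCR β-chain clonotypes also left 2 genes called. Without TRBV29, the gap in long CDR3s was -17.8 and -4.49 points and the TRBD1 gap in CD8αβ T cells was 15.8 points, all short of the threshold, as was the gap in long CDR3s of -17.1 points in CD8αα T cells without TRBV26. Some differences that were never past the threshold changed direction. These were the TRBJ2 share between cell types (0.355 points without the largest downstream clonotypes), the TRBD1 gap in CD8αα T cells (-4 points with at least 2 reads, -7.33 points without TRBV29) and, with at least 2 reads, TRBV31 against the other 7 genes joined to TRBJ2 (-7.69 points in CD8αα and 22.5 points in CD8αβ T cells), the TRBV20 share of reads (-0.0178 points), the TRBV19 share of clonotypes (0.736 points) and the TRBV30 share of clonotypes (-0.256 points). The mean length difference was 0.314 amino acids in that setting, and its error there is not given. The cause was not tested. The other comparisons, 142 by main results and 138 by single genes, kept their side of the threshold where they were tested. Apart from that length difference, they kept their direction. Sizes could still move, as with the TRBJ2 share between cell types, at -0.69 points in the full lists and -10 points with at least 2 reads. The comparisons covered merging CDR3s 1 nucleotide apart, joining entries with the same amino acid CDR3, and leaving out tied V hits or clonotypes in both libraries. Leaving out TRBV21 or TRBV16 and TRBV5, reducing CD8αα to the CD8αβ depth of 1850 reads, and leaving out single genes were chosen after seeing the data. No paired analysis was possible because each cell type had 1 library. The CD8αα list held 42 downstream clonotypes, so differences by clonotypes had wide intervals.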

Other observations

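The constant gene listed best for a downstream clonotype did not follow its J cluster. TRBC2 was the best hit for 11 of the 13 TRBJ1-joined downstream clonotypes with a constant hit in CD8αα T cells and for 52 of 54 in CD8αβ T cells. For those joined to TRBJ2 the numbers were 19 of 21 and 81 of 82. TRBC1 lies between the TRBJ1 cluster and TRBD2, and TRBJ1-joined chains ordinarily carry it. Clonotypes of the other V genes showed the same listing, with TRBC2 for 75 of 82 and 153 of 162 of those joined to TRBJ1. The constant gene was therefore not used in any comparison.

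Singletons of the downstream genes in CD8αα T cells were short, with 1 of 14 at 15 amino acids or more and a mean of 12.8 amino acids, against 8 of 28 and a mean of 13.8 among those with more reads. In CD8αβ T cells the means were 13.6 and 13.5. These differences were not tested.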
